A study of Mus musculus with 12 samples.

Results

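Oxidative phosphorylation subunits are the nuclear-encoded proteins of the 4 respiratory chain complexes and of ATP synthase in the inner mitochondrial membrane. They were taken here as every probe with 1 gene symbol beginning with Ndufa, Ndufb, Ndufc, Ndufs or Ndufv and a number, Sdha to Sdhd, and the Uqcr, Cox4 to Cox8 and Atp5 families. That gave 69 of the 10225 named genes, with 111 of the 28704 probes on the array, of which 103 probes of 66 genes could be tested. The samples were 6 shear samples and 6 control samples of MC3T3-E1, a clonal osteoblast-like line from mouse calvaria, so that a single line stands for the cell type. Shear samples were confluent layers on glass slides, put for 5 h under pulsatile flow of alpha-MEM with 1% FBS in a parallel plate chamber, at 1 Hz and a mean shear stress of 5 dyn/cm2. Control samples stood without flow in the same apparatus, and both groups had been grown in alpha-MEM with 5% FBS and antibiotics. Total RNA was compared on spotted 2-colour arrays, with Cy5 in the odd and Cy3 in the even replicates. Both samples of an array belonged to the same group: replicates 1 and 2, 3 and 4, and 5 and 6 were taken to share an array, so each group rests on 3 arrays. Whether replicates were separate cultures is not said in the labels, so each p-value reflects sample-to-sample spread that can be technical.

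Complex I takes electrons from NADH, complex II takes them from succinate, complex III passes them from ubiquinol to cytochrome c and complex IV passes them to oxygen. Complexes I, III and IV pump protons, and complex V, ATP synthase, uses the gradient to make ATP. Complexes I, III, IV and V combine nuclear-encoded subunits with subunits encoded in mitochondrial DNA, while complex II is nuclear-encoded throughout. In bone-forming cells, oxidative phosphorylation and glycolysis both supply ATP.

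Per sample, 18434 (control 4) to 23790 (control 1) probes had a value, among them 99 to 105 of the 111 subunit probes. A value was read as the log2 of a spot's net fluorescence over the median of its block of spots. The scale then runs from each sample's own typical spot, and a level is not set against that of another probe. Pearson correlations over 17080 probes were 0.954 to 0.981 within an array, 0.873 to 0.915 between arrays of 1 group and 0.844 to 0.898 between the groups. The array pairs were partly inferred from these correlations, so the first range is no independent check of them. Of 12 osteoblast marker genes 7 were tested, and their mean log2 level was 1.99 to 2.93 in shear and 1.86 to 2.95 in control samples. These markers were not uniformly high. Both probes of Alpl lay below these ranges, with means of -1.393 and -0.952 in shear and -1.401 and -1.007 in control samples. Dlx5 also lay below, while both probes of Sparc and of Serpinh1 lay above in each group. On that list the collagen cross-linking enzyme Lox passed as higher in shear (2.10 ± 0.41 SE, adjusted p 0.0219, limma) and the homeobox factor Dlx5 as lower (-0.97 ± 0.23 SE, adjusted p 0.0479, limma). No probe of the macrophage, endothelial, adipocyte, muscle or chondrocyte lists passed the test (limma, adjusted p under 0.05), and no probe of these lists had an unadjusted p under 0.05 either. Their mean log2 levels ran from -0.84 to 0.75 in shear and from -0.92 to 1.62 in control samples. Single genes lay outside these ranges, such as Tnnt1 of the muscle list with 3.20 in shear and 3.79 in control samples. Means over different probes are therefore no test of cell type. Of all 21883 probes tested, 310 (1.42%) passed as higher in shear and 44 (0.201%) as lower.

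The median change of the subunit RNAs under flow was close to that of the whole array, and 1 probe of ATP synthase passed the test. Among the 103 subunit probes, 0 passed as higher (limma, Benjamini-Hochberg over all probes), against 1.42% of all probes, and 1 passed as lower, against 0.201% of all probes. The probe that passed was that of Atp5c1, the gamma subunit that turns inside the catalytic head of ATP synthase. In a bulk sample, less of an RNA per cell and fewer cells carrying it cannot be told apart. At an unadjusted p under 0.05, 8 subunit probes (7.77%) were reached, 6 higher and 2 lower, against 14.6% of all probes. In 3 subunit probes (2.91%) all measured shear samples lay above all measured control samples, against 6.26% of all probes, and in 1 they lay below, against 1.68%.

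The median change, shear minus control, was 0.09 (log2) over the subunit probes and 0.10 over all probes tested, so the sign of a small change depends on where the arrays are centred. Changes above 0 made up 63.1% of the subunit probes and 60% of all probes. After centring on the probes measured in every sample, where the median of all probes was -0.02, 46 of the 103 subunit probes were above 0. The split of passing probes over the array moved from 310 higher and 44 lower to 274 higher and 132 lower under that centring, while Atp5c1 was still the 1 subunit probe that passed. The interquartile range of the subunit probes was 0.39 log2 units, against 0.57 for all probes. An absolute change of at least 1 was seen in 3 subunit probes (2.91%), those of Atp5c1, Cox5b and Cox7c, against 6.22% of all probes. The 95% interval of the change lay within 1 log2 unit of 0 on both sides for 69 subunit probes (67.0%), against 51.9% of all probes, so for the remaining 34 a change of that size was not excluded by the interval.

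**Figure D1:**
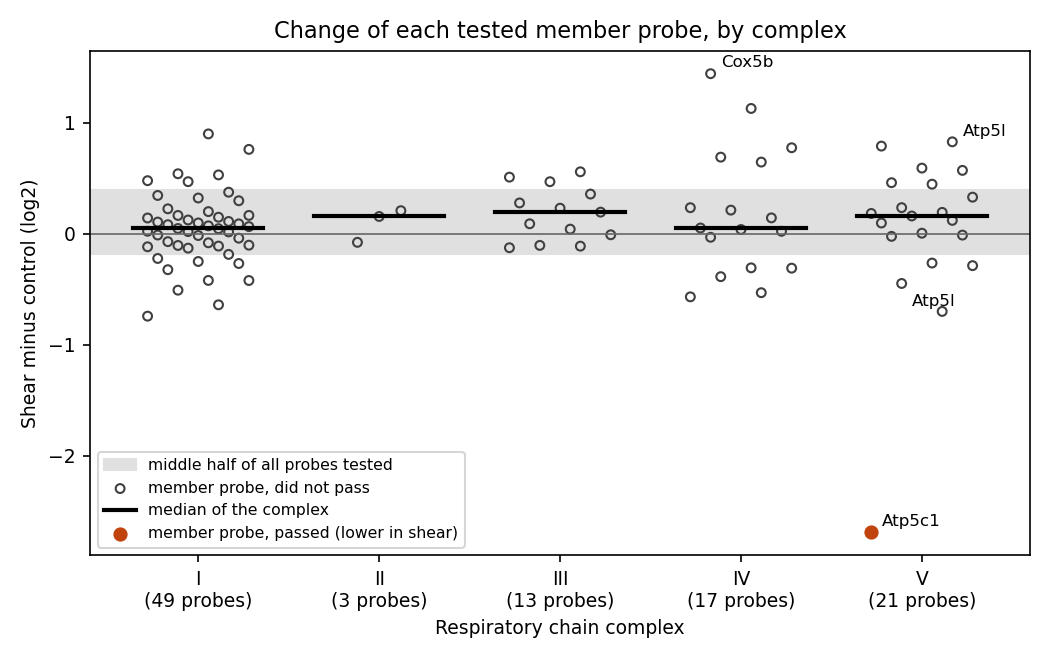
Shear minus control (log2) of each of the 103 tested subunit probes, in columns for complexes I to V. Open circles did not pass the limma test, the filled circle (Atp5c1) did, thick bars are medians of the complex and the grey band is the interquartile range of all 21883 probes tested. The 5 medians lie between 0.05 and 0.20, inside the band, and Atp5c1 lies far below every other probe.

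By complex, the median change was 0.05 in complex I (49 probes), 0.16 in complex II (3 probes), 0.20 in complex III (13 probes), 0.05 in complex IV (17 probes) and 0.16 in complex V (21 probes). These medians are a description and carry no test, and under cyclic loess scaling all 5 were below 0 (-0.15 to -0.037), beside a median of -0.02 over all probes. The per-sample medians overlapped between the groups in each complex. For complex I they were 1.23, 1.60 and 1.71 (lowest, median and highest) in shear samples and 1.10, 1.56 and 1.89 in control samples. Complex II had 1.19, 1.64 and 1.81 in shear samples against 1.14, 1.26 and 1.83 in control samples, and complex III had 1.95, 1.96 and 2.29 against 1.72, 1.89 and 2.24. For complex IV the medians were 2.03, 2.48 and 2.63 in shear samples and 1.64, 2.26 and 2.71 in control samples, and for complex V 2.32, 2.59 and 3.05 against 2.04, 2.49 and 2.87. Control 4, the sample with the fewest measured probes, gave the lowest control median in complexes I, II, IV and V. Shear 4, with 23135 measured probes, gave the lowest shear median in complexes I, II, III and IV.

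**Figure D2:**
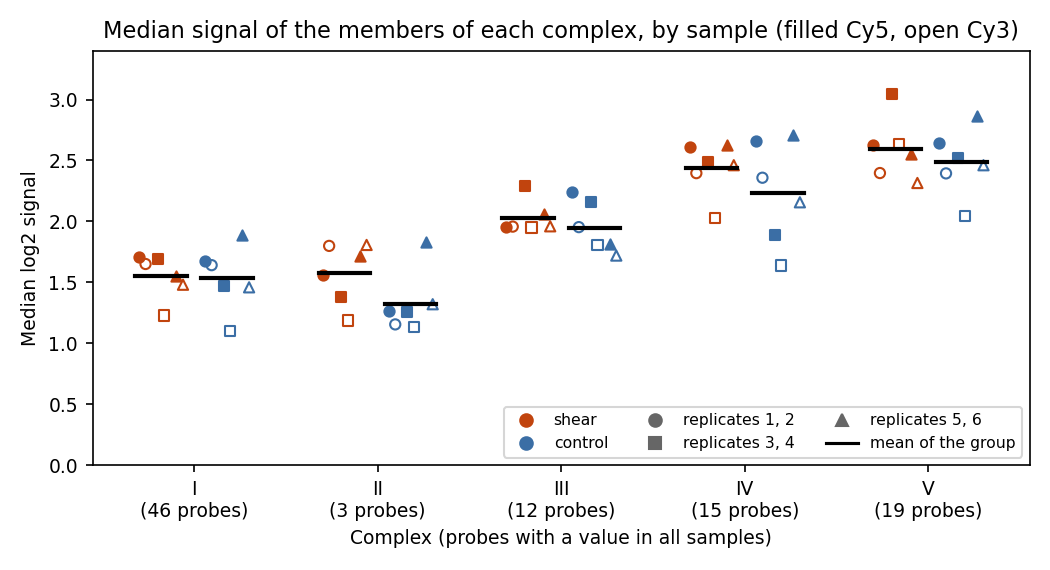
Median log2 signal of the subunit probes measured in all 12 samples (46, 3, 12, 15 and 19 probes for complexes I to V), 1 point per sample, with shear left of control, symbols for the arrays, filled points for Cy5, open points for Cy3 and bars for the group mean. The shear and control points overlap in every complex, for complex IV between 2.03 and 2.63 in shear and between 1.64 and 2.71 in control samples.

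To show the sequence upstream of the genes on which the results turn, the bases before the start of Atp5c1, Cox5b and Atp5l are printed from RefSeq's GRCm38.p6 table, 5′ to 3′ on the gene's strand. Nuclear respiratory factor 1 (NRF1) and ETS factors such as GABP are known to bind upstream of many respiratory chain genes. The 250 bases before the most upstream start of each gene were searched for TGCGCA, the core of the NRF1 site, which reads alike on both strands, and for CCGGAAG (ETS) on both strands. Of 59 subunit genes matched in the table, 12 (20.3%) held the NRF1 letters, against 6.67% of 27025 genes, and 10 (16.9%) held the ETS letters, against 7.07%. For Atp5c1 the 40 bases that do not belong to the neighbouring gene Kin are shown, at chr2:10080511-10080550 on the minus strand. The windows of Cox5b (chr1:36691237-36691486, plus strand) and Atp5l (chr9:44920743-44920992, minus strand) have 250 bases, and capitals mark the matches. Cox5b held 1 NRF1 match, Atp5l held 1 NRF1 match and 1 ETS match on the other strand, and the 250 bases before Atp5c1 held neither. A match is a description of the letters and not of binding.
Atp5c1: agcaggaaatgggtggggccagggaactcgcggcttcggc
Cox5b: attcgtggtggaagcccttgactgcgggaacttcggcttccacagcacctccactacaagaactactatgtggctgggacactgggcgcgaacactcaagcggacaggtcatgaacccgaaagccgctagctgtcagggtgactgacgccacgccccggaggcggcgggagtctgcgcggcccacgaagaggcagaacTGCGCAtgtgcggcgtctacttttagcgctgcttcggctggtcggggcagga
Atp5l: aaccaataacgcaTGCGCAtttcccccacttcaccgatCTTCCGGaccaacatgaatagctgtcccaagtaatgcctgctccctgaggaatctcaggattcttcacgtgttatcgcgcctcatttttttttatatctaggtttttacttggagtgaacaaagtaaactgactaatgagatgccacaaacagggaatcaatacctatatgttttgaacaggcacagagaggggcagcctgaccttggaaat

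ATP synthase held the only subunit probe that passed. Atp5c1 had 1 probe, and its log2 signal was -1.41, 1.21 and 1.40 (lowest, median and highest) in shear samples and 2.29, 3.22 and 3.63 in control samples. All 6 shear samples lay below all 6 control samples. In net fluorescence the spot gave 77 to 1923 units in shear samples and 1472 to 6307 in control samples, so it was measured in each of the 12. The change was -2.69 ± 0.54 (SE, n = 6 shear and 6 control), 6.47-fold lower in shear, with an adjusted p of 0.0233 (limma). The 95% interval of the change ran from -3.84 to -1.55. The shear arrays differed among themselves, with means of 1.36, 1.21 and -1.36 for replicates 1 and 2, 3 and 4, and 5 and 6, against 3.59, 3.22 and 2.48 for the control arrays. Without the array of shear replicates 5 and 6 the change was -1.81, and it still passed. The call was lost when each array was averaged to 1 value (adjusted p 0.121, limma). It was also lost without the array of control replicates 1 and 2 (adjusted p 0.0861) or 3 and 4 (adjusted p 0.0689). Fits without any 1 of the other arrays, which also held fewer values, kept it (adjusted p 0.025 to 0.047, limma). Over the 31 alternatives the change ran from -3.17 to -1.81 and the adjusted p from 0.00242 to 0.121 (limma). With no further probe for Atp5c1 on the array, this change could not be compared with that of another spot of the gene.

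The other subunits of the catalytic head had 6 tested probes, and none of them passed. Atp5b, the catalytic beta subunit, had 3 probes. The first (probe 2905) had 1.35, 1.55 and 1.76 in the 4 shear samples with a value and 0.45, 0.81 and 0.96 in the 6 control samples, without overlap, a change of 0.79 ± 0.26 (SE) with an adjusted p of 0.160 (limma). Its other probes, spots of the same clone (3154 and 28296), changed by 0.19 and 0.16, with overlapping groups, and under cyclic loess scaling both values were below 0. Both shear samples without a value at probe 2905 were replicates 1 and 2, so no value of that array entered its change. Atp5d and Atp5e, the small delta and epsilon subunits of the central stalk, changed by -0.29 ± 0.27 and 0.59 ± 0.32 (SE), and their groups overlapped.

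In the membrane part of ATP synthase, the probes of Atp5l, subunit g at the dimer interface, differed. Probe 5105 had 3.15, 3.39 and 3.69 in shear samples and 2.15, 2.62 and 2.93 in control samples, with every shear sample above every control sample. That change was 0.83 ± 0.23 (SE), 1.78-fold higher in shear, with an adjusted p of 0.0901 (limma), short of the threshold. Probe 2854 of the same gene had 1.73, 2.92 and 3.25 in shear samples and 2.74, 3.10 and 3.65 in control samples, which overlapped, and changed by -0.45 ± 0.34 (SE). Its lowest values came from shear replicates 1 and 2, and the same replicate numbers gave the highest control values. At probe 5105 control replicates 1 and 2 gave the lowest control values, 2.25 and 2.15, against 2.59 to 2.93 for the others. Over the 12 samples the correlation between the probes was -0.38. Which of the probes follows the gene's RNA was not tested.

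Further subunits of complex V had small changes relative to their spread. Atp5g1 is 1 of the Atp5g genes for the c subunit, which forms the proton-carrying ring. At probe 15999 it had 2.32, 2.51 and 2.94 in shear samples and 1.47, 1.85 and 2.72 in control samples. The change there was 0.57 ± 0.32 (SE). At probe 21769 Atp5g1 changed by 0.01, which lay below 0 in each of the 3 other scalings. Shear replicates 1 and 2 had no value at probe 21769, so that array did not enter this change. The stator subunits Atp5o and Atp5j changed by 0.45 ± 0.24 and 0.46 ± 0.32 (SE), both with overlapping groups. Atp5pb, the b subunit of the peripheral stalk, had 2 probes. Probe 26837 had -1.94, 1.28 and 2.15 in shear samples and 0.78, 1.19 and 1.80 in control samples, and its array means of -1.75, 1.28 and 2.04 in shear differed by more than the groups did. Its change was -0.70 ± 0.68 (SE), with 0.44 when the array of shear replicates 1 and 2 was left out, while probe 15530 changed by -0.01.

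**Figure D3:**
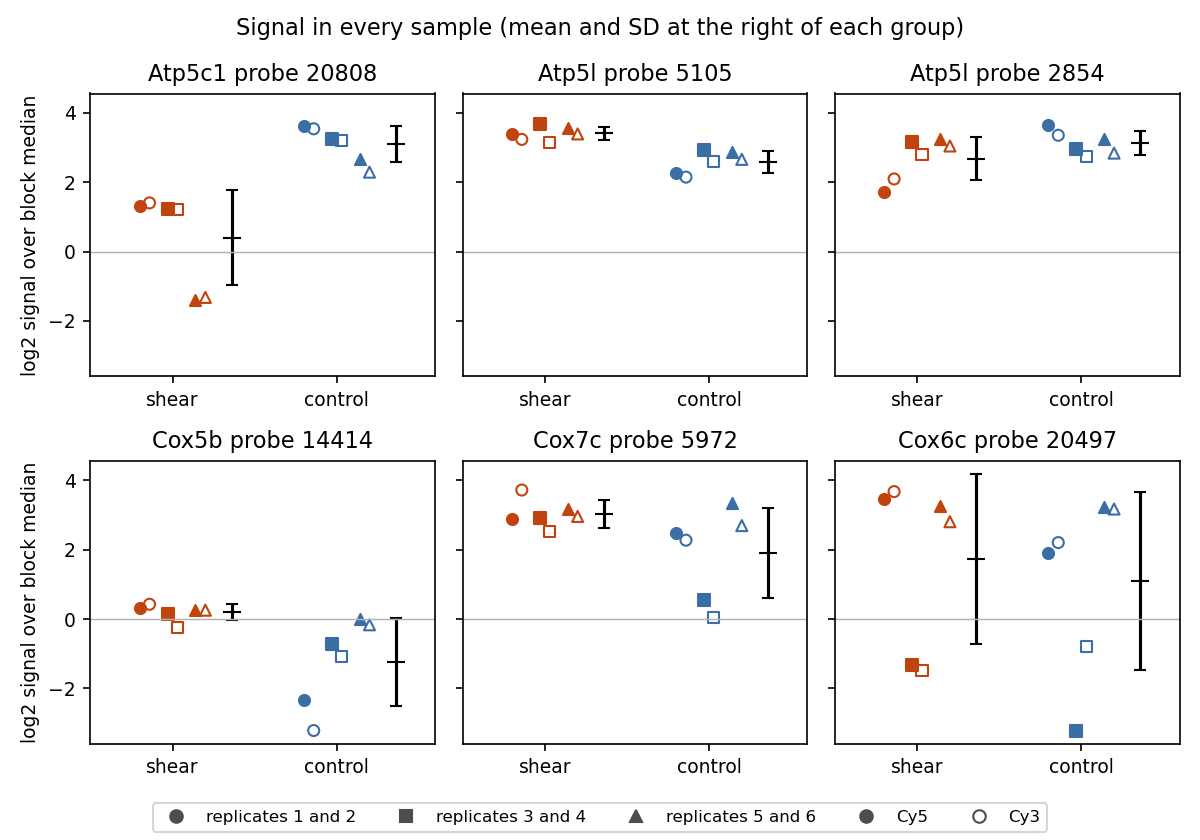
Log2 signal over the block median in every sample for 6 subunit probes, with shear left of control, symbols for the 3 arrays of each group, filled points for Cy5, open points for Cy3, and the mean ± SD at the right of each group. Atp5c1 and Atp5l probe 5105 separate the groups, in opposite directions. Atp5c1 (shear replicates 5 and 6), Cox5b, Cox7c and Cox6c have single arrays far from the others of their group.

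Complex IV, cytochrome c oxidase, had the widest interquartile range of changes of the 5 complexes, 0.95 log2 units over its 17 probes, and none passed. Cox5b, a zinc-binding subunit next to the catalytic core, had 1 probe with the highest change of all subunit probes. Its values were -0.24, 0.26 and 0.43 in shear samples and -3.21, -0.89 and 0.00 in control samples. The groups overlapped, since control replicates 5 and 6 lay within the shear range. The change was 1.44 ± 0.51 (SE), 2.72-fold higher in shear, with an unadjusted p of 0.0125 and an adjusted p of 0.185 (limma). Control array means ran from -2.77 for replicates 1 and 2 through -0.89 to -0.08, against 0.37, -0.04 and 0.26 for the shear arrays. Without the array of control replicates 1 and 2 the change was 0.68 with an adjusted p of 0.295, and without that of control replicates 5 and 6 it was 2.03 with an adjusted p of 0.0697 (limma).

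Cox5a, the partner of Cox5b in the matrix-facing part of the enzyme, had 1.59, 1.93 and 2.22 in shear samples and 0.83, 1.28 and 1.53 in control samples. All shear samples lay above all control samples, yet the change of 0.69 ± 0.30 (SE) had an adjusted p of 0.299 (limma). Both probes of Cox4i1, the ubiquitous form of the regulatory subunit 4, overlapped between the groups, with changes of -0.31 ± 0.29 and -0.03 ± 0.30 (SE). The probe of Cox4i2, its hypoxia- and lung-associated form, had no value in any sample.

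Among the small subunits around the core, Cox7c had 2.53, 2.93 and 3.72 in shear samples and 0.06, 2.38 and 3.35 in control samples. Control replicates 3 and 4 were low, with an array mean of 0.30 against 2.38 and 3.02, and the groups overlapped at a change of 1.13 ± 0.57 (SE). Cox6c had 1 array at low signal in each group: replicates 3 and 4 had -1.33 and -1.49 in shear and -3.22 and -0.78 in control samples, against array means of 3.57 and 3.04 for the other shear arrays and 2.06 and 3.20 for the other control arrays. Its change of 0.65 ± 1.34 (SE) was smaller than its standard error. Array means more than 2 log2 units apart within a group were seen at 7 subunit probes (6.80%) and at 5.13% of all probes. Cox6a1 at probe 27643 had -0.90, -0.72 and -0.12 in shear samples and -3.23, -0.59 and -0.39 in the 5 control samples with a value, and its change of 0.78 ± 0.58 (SE) was -0.03 without that low sample, control 3. The probes of Cox7a2 changed by 0.05 and 0.02, and the sign of both turned under each of the 3 other scalings. Cox6b2, the testis form of Cox6b, had log2 signals of -2.85 to -1.55 in shear and -3.15 to -1.53 in control samples over its 2 probes, and both probes overlapped between the groups. Cox8a and Cox7a2l, a factor that joins complexes III and IV into supercomplexes, gave negative values: -0.57 ± 0.31 for Cox8a, and -0.53 ± 0.28 and -0.39 ± 0.34 (SE) for the Cox7a2l probes, all with overlapping groups.

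Complex I, with 49 tested probes of 30 genes, had 0 probes past the threshold (limma), against 1.62% of all probes, and 3 (6.12%) with an unadjusted p under 0.05, against 14.6%. The groups overlapped at each of its probes, while over all probes shear lay wholly above control in 6.26% and wholly below in 1.68%. Its core subunits carry the flavin and the iron-sulfur clusters, and the accessory subunits surround them. Over the core, 6 probes of 5 genes had a median change of -0.11. The lowest was Ndufv1, which binds NADH and the flavin, with 0.53, 1.14 and 1.61 in shear samples and 1.36, 1.92 and 2.35 in control samples at probe 11104. These values overlapped, and the change of -0.74 ± 0.29 (SE) had an adjusted p of 0.246 (limma), while probe 15579 of Ndufv1 changed by -0.11 ± 0.31 (SE).

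Accessory Ndufa subunits, 18 probes of 11 genes, had a median change of 0.08. Ndufa5 probe 24693 had -0.07, 0.46 and 1.09 in shear samples and -1.31, -0.45 and 0.41 in control samples, an overlapping pair of groups with a change of 0.90 ± 0.39 (SE), the highest of the complex. Its second probe changed by 0.08 ± 0.25 (SE), which turned below 0 under the other scalings. Ndufa12 had an unadjusted p of 0.0447 at 1 probe, with 2.33, 2.72 and 2.94 in shear samples, 1.97, 2.07 and 2.59 in control samples and a change of 0.54 ± 0.25 (SE). Ndufa7 probe 27411 changed by 0.76 ± 0.52 (SE), with shear replicates 1 and 2 averaging -0.24 against 2.50 and 1.99 for the other shear arrays. Ndufa8 gave -0.27 ± 0.31 and 0.47 ± 0.26 (SE) at its probes, and Ndufa1, a small membrane-spanning subunit, gave 0.38 ± 0.26 (SE).

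The Ndufb and Ndufc subunits, which sit mainly in the membrane arm, had 10 probes above 0 and 10 below, with a median of 0.04. Ndufb9 gave -0.64 ± 0.50 and -0.32 ± 0.30 (SE), and Ndufb7 gave -0.42 ± 0.32 and -0.22 ± 0.40 (SE). Ndufb4 gave -0.51 ± 0.28 and 0.17 ± 0.23, and Ndufc1 gave 0.53 ± 0.31 and -0.10 ± 0.27 (SE). Ndufb8 had 0.98, 1.31 and 1.72 in shear samples and 0.53, 0.88 and 1.05 in control samples, nearly apart, with a change of 0.48 ± 0.25 (SE). The accessory Ndufs and Ndufv subunits had 5 probes of 3 genes with a median of 0.11. Ndufs4, near the electron input arm, gave 0.35 ± 0.26 and 0.05 ± 0.29 (SE), and its groups overlapped at both probes.

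Complex II was represented by Sdhb, the iron-sulfur subunit of succinate dehydrogenase, and Sdhd, a membrane anchor, and its 3 probes changed by -0.08 to 0.21. Sdhd had 1.58, 1.83 and 1.96 in shear samples and 1.16, 1.64 and 2.11 in control samples, a change of 0.21 ± 0.27 (SE). The probes of Sdhb changed by 0.16 ± 0.27 and -0.08 ± 0.28 (SE), and the groups of each probe overlapped. The 95% interval lay within 1 log2 unit of 0 for all 3 probes.

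In complex III, 13 probes of 7 genes had 0 past the threshold and 0 at an unadjusted p under 0.05 (limma), against 1.62% and 14.6% of all probes. The highest was Uqcrfs1, the Rieske iron-sulfur protein, with 0.36, 1.50 and 1.95 in shear samples and 0.38, 0.83 and 1.01 in control samples at probe 17867, a change of 0.56 ± 0.32 (SE). Its other probe changed by -0.13 ± 0.29 (SE). Uqcrc1, a core protein, had 1.39, 1.68 and 1.71 in the 4 shear samples with a value at probe 172 and 0.86, 1.08 and 1.40 in control samples, a change of 0.51 ± 0.25 (SE) in groups that nearly separated. Shear replicates 3 and 4 had no value at probe 172, so that array did not enter this change. Uqcrc2, the other core protein, had 4 probes, of which 2 were spots of the same clone. Those spots changed by 0.47 ± 0.46 and 0.09 ± 0.40 (SE), with a correlation of 0.73 over the 12 samples. For the Atp5b spots of the same clone, probes 3154 and 28296, that correlation was 0.18. Why spots of the same clone differed was not tested. The other Uqcrc2 probes, 385 and 25529, changed by -0.01 ± 0.24 and 0.04 ± 0.24 (SE). At probe 4713, the spot with 0.47, the control array means were 3.41, 3.53 and 1.73. Without the array of control replicates 5 and 6 the change at probe 4713 was -0.11. The small subunit Uqcr11 gave -0.10 ± 0.23 and -0.11 ± 0.32 (SE).

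Probes of 1 gene often lay on both sides of 0, in the subunits as on the rest of the array. Of 32 subunit genes with at least 2 tested probes, 14 (43.8%) had probes of opposite sign, against 1724 of 4049 genes (42.6%). The median distance between the highest and lowest probe of a gene was 0.35 for the subunit genes and 0.40 for all genes. A distance over 1 was found in 1 subunit gene (3.13%), Atp5l, and in 12.6% of all genes. Atp5c1 and Cox5b had 1 probe each and did not enter this count.

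**Figure D4:**
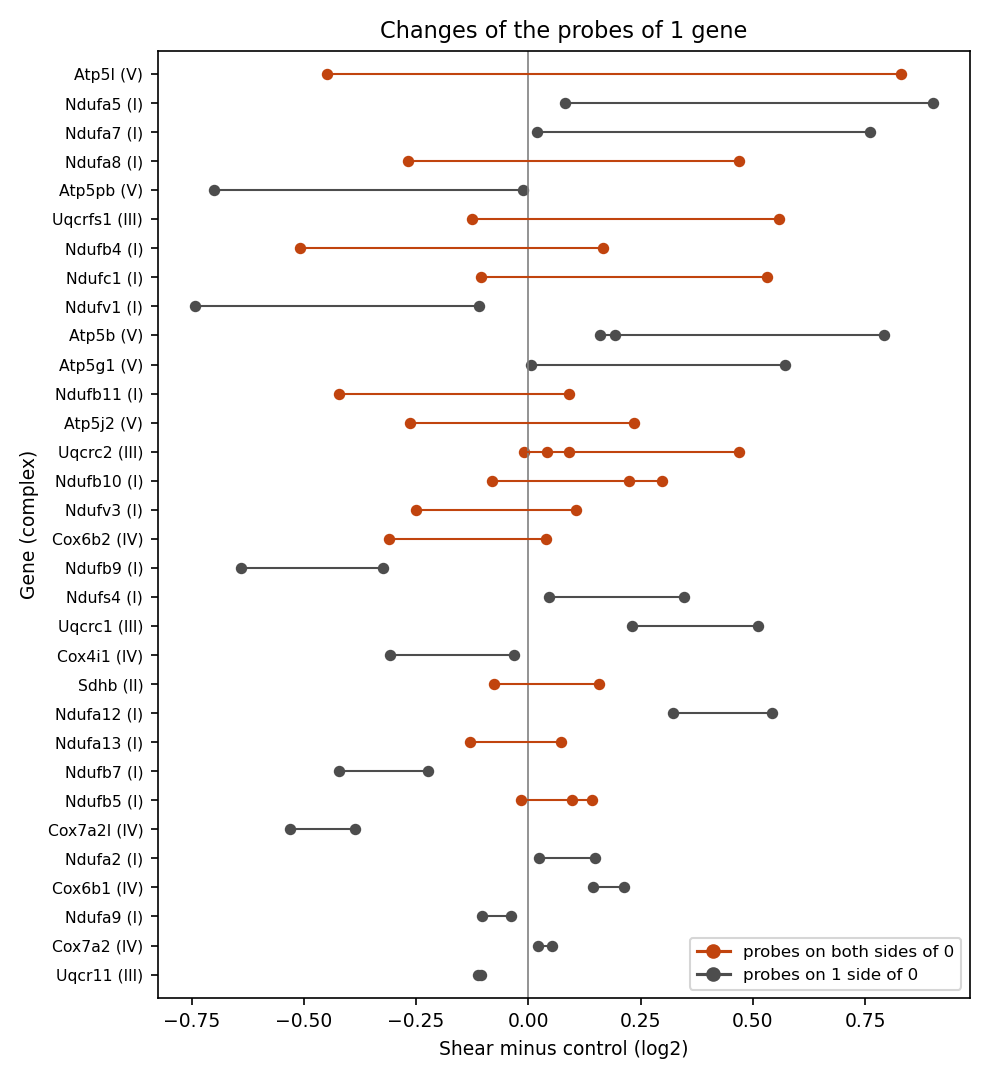
Shear minus control (log2) of each probe of the 32 subunit genes with at least 2 tested probes, joined by a line per gene and ordered by the distance between probes, with the complex in brackets. Genes with probes on both sides of 0 (14) are in red, and Atp5l at the top is the 1 gene with probes more than 1 apart.

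Other genes of the pathway were counted beside the subunits. There were 12 tested genes (18 probes) for electron carriers, adenine nucleotide and phosphate carriers, ubiquinone synthesis and the ATP synthase inhibitor Atpif1. Their median change was 0.07, and 4 probes had an unadjusted p under 0.05 (22.2%, against 14.6%, limma). Of these genes 1 passed as higher and 0 as lower, against 1.42% and 0.201% of all probes. That gene was Cycs, cytochrome c, which carries electrons between complexes III and IV, with means of 2.98 in shear samples and 1.70 in control samples, no overlap, and a change of 1.28 ± 0.28 (SE, adjusted p 0.0381, limma). Cycs lost its call under each of the 3 other scalings (adjusted p 0.0682 to 0.0763), with arrays averaged (0.0850) and in 12 fits with a sample or an array left out, those without shear 1, 3, 5 or 6, without control 1, 3 or 6, without any 1 of the 3 shear arrays and without the control array of replicates 1 and 2 or 5 and 6 (adjusted p up to 0.164, limma). The probes of Slc25a5, an ADP/ATP carrier, lay on opposite sides without overlap between groups: means of 1.29 in shear and 2.82 in control samples at 1 probe (-1.53 ± 0.46), and of 3.75 in shear and 3.03 in control samples at the other (0.71 ± 0.28, SE).

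Assembly factors, which build the complexes without staying in them, had 30 tested genes (40 probes) with 0 past the threshold, 6 at an unadjusted p under 0.05 (15%, against 14.6% of all probes) and a median change of 0.04. Uqcc2, an assembly factor of complex III, had the lowest change, with means of 0.58 in shear samples and 2.48 in control samples (-1.90 ± 0.48 SE, adjusted p 0.0634, limma), and it passed under each of the 3 other scalings (adjusted p 0.0382 to 0.0482). The citric acid cycle and pyruvate dehydrogenase, which supply NADH and succinate, had 14 tested genes (35 probes) with 0 past the threshold, 2 at an unadjusted p under 0.05 (5.71%, against 14.6%) and a median change of 0.13. Regulators of mitochondrial biogenesis had 15 tested genes (29 probes) with 0 past the threshold, 3 at an unadjusted p under 0.05 (10.3%, against 14.6%) and a median change of 0.19. Over all probes, 1.62% passed in either direction and the median change was 0.10. The transcription cofactor Hcfc1 was the highest of these, with means of 3.29 in shear samples and 2.28 in control samples (1.01 ± 0.26 SE, adjusted p 0.0684, limma).

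Of the 8 subunit probes that could not be tested, 6 had no value in any sample, those of Ndufa6, Ndufb6, Ndufc2, Ndufs5, Cox4i2 and Cox8a. The remaining 2 were an Atp5g1 probe with a value in 2 control samples and a Cox6a1 probe with values in 6 shear and 3 control samples. Ndufa6, Ndufs5 and Cox4i2 had no other probe, and of them nothing was measured. The number of arrays limits the precision of every change given here.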

How the data were processed

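The deposited values are log2 values, 1 per probe and sample, made by the authors. On the linear scale, 100% of them became whole numbers after multiplication by 1 factor per block and sample, with 48 blocks of 598 spots and a tolerance of 0.002. The whole numbers were read as net fluorescence and the factor as the block median. Whether the factor equals that median was not checked. On that reading, a shift shared by every gene is lost. No label or header used here names the scanner, background correction or rule for missing values. Median net fluorescence per sample was 243 to 868.

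Probes were named from the platform annotation and updated through the Entrez number (18267 of 18511 probes with 1 symbol). Each probe with values in at least 4 of 6 samples per group was fitted with limma 3.58.1 (R 4.3.3): group and dye as terms, array as a random block (duplicateCorrelation, 0.73), Benjamini-Hochberg adjustment over 21883 probes, threshold 0.05. The array pairs are an inference from dyes, numbering and correlations between samples, and with 3 arrays per group p-values can be too small. On simulated data of 21883 probes with this design, 7 of 100 changes of 1 log2 unit and 81 of 100 of 2 units were recovered, with 4 false among 92 calls. The simulated noise was normal, with the same array correlation for every probe. Single arrays far from the others of their group were not simulated, so false calls can be more frequent in the real data. Motif counts and figures used Python 3.11.15, pandas 2.3.3 and matplotlib 3.10.9.

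The members and lists were chosen with earlier results of these data known. Values are given for every probe of Atp5c1, Atp5l and Cox5b, members that passed, the 3 highest and 3 lowest of each complex, members at an absolute change of at least 1 without overlap between groups, and measured probes of the isoform families Cox4i, Cox6a, Cox7a, Cox8 and Atp5g. Other probes with values (among them Cox5a, Cox6c, Atp5b 3154 and 28296, Uqcrc2 and the second probes of complex I genes, and Cycs, Slc25a5, Uqcc2 and Hcfc1) were chosen after their values were seen.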

Additional observations from a re-analysis of the deposited data

Results flagged for a closer look

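Values far from the rest of their group, by Dixon's ratio of the gap to the range, were found in 8 of 114 groups tested. These groups came from probes named above, not from all tested subunit probes. Chance gives about 1 in 20, but samples of an array move together and many of these probes were chosen for or after their values. The count is therefore not set against that rate. Ndufc1 probe 20286 had 0.60 in shear 4 (nearest value 1.32) and 0.23 in control 4 (nearest 0.79). Ndufv1 probe 15579 had 0.81 in shear 4 (nearest 1.25), and Cox7a2l probe 16299 had 2.14 in shear 4 (nearest 2.64). Atp5g1 probe 21769 had 0.43 in control 4 (nearest 0.69). Uqcrc1 probe 172 had 1.39 in shear 2 (nearest 1.68, 4 values), and Atp5o had 3.35 in shear 3 (nearest 2.70). Cox6a1 probe 27643 had -3.23 in control 3 (nearest -0.65, 5 values). The untested Cox6a1 probe 13453 averaged -2.48 in 6 shear samples, against -2.79 in the 3 control samples with a value.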

How the results depend on the processing

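Atp5c1 stayed below 0 in all 31 alternatives and lost its call in 3. Subunit probes passing as higher numbered 4 without the array block and 3 with a replicate block, against 0; those passing as lower numbered 2 without the array block, 0 with arrays averaged and 0 to 1 with a sample or array left out. Probes passing over the array numbered 232 with 1 probe per gene, 235 with quantile normalization, 2664 without the array block, 106 with arrays averaged, 558 without the dye term, 2240 with the replicate block and 76 to 368 with a sample or array left out, against 354. Replicate numbers did not pair the samples (correlations of deviations between -0.09 and 0.12, 1 of 6 highest with its own number), so the replicate block shares only a number; it also drops the array block. Averaging spots of the same clone, chosen after seeing the data, moved no count past 1.5 times.

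Small changes turned sign with the scaling. Centring gave -0.054 for Ndufa5 25821, -0.12 for Ndufa7 19811, -0.090 for Ndufs4 16811, -0.046 for Uqcrc2 9497, -0.084 and -0.11 for Cox7a2 and -0.15 for Atp5g1 21769. Quantile normalization gave -0.018 for Ndufa5 25821, -0.16 for Ndufa7 19811, -0.098 for Ndufs4 16811, -0.11 and -0.15 for Cox7a2 and -0.073 for Atp5g1 21769. The median change of complex I was -0.088 with centring, -0.061 with quantile normalization and -0.15 with cyclic loess, that of complex IV -0.031 with quantile normalization and -0.091 with cyclic loess, and cyclic loess gave -0.047, -0.037 and -0.059 for complexes II, III and V. For single probes, cyclic loess gave -0.094 for Ndufa5 25821, -0.21 for Ndufa7 19811, -0.064 for Ndufb4 18323, -0.17 for Ndufs4 16811, -0.047 for Sdhb 15539, -0.0057 for Sdhd, -0.12 for Uqcrc2 9497, -0.18 and -0.21 for Cox7a2, -0.023 and -0.059 for Atp5b 3154 and 28296 and -0.18 for Atp5g1 21769; subunit probes above 0 numbered 33 there and 48 under quantile normalization.

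With a sample or array left out, the change ran from -0.057 to 0.44 for Atp5b 28296, -0.054 to 0.039 for Atp5g1 21769, -0.15 to 0.15 for Atp5pb 15530, -1.46 to 0.44 for Atp5pb 26837, -0.24 to 0.23 for Cox4i1 5684, -0.028 to 0.91 for Cox6a1 27643, -0.90 to 2.22 for Cox6c, -0.13 to 0.22 and -0.16 to 0.32 for Cox7a2, -0.059 to 0.20 for Ndufa5 25821, -0.23 to 0.27 for Ndufa7 19811, -0.69 to 0.063 for Ndufb7 22544, -0.26 to 0.15 for Ndufc1 2287, -0.22 to 0.23 for Ndufs4 16811, -0.34 to 0.034 for Ndufv1 15579, -0.33 to 0.15 for Sdhb 8239, -0.17 to 0.015 and -0.36 to 0.30 for Uqcr11, -0.11 to 0.79 and -0.14 to 0.26 for Uqcrc2 and -0.32 to 0.20 for Uqcrfs1 12551. The causes were not tested. Of all named probes by alternative, 1741 kept direction and side of the threshold, 84 changed sign, 20 gained and 19 lost a call. Signal over background is given by no file used here.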
